A study of Rattus norvegicus with 12 samples.

Results

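The genes described here are 9 neighbours on rat chromosome 6, from Camkmt to Zfp36l2, each read by 1 probe on an Illumina RatRef-12 bead array. They were chosen as a run of genes that stand next to each other among the tested genes in rat genome order, with the difference between the tumour groups already in view, and they make up 9 of 11695 genes tested. Every gene symbol of the run was found in the probe annotation, and all 9 probes were detected (detection p under 0.05) on all 12 arrays, so none was lost to the filter on dim probes. Since their change between the groups is what chose them, that change is given as a description and carries no p-value.

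The tumours grew in the brains of 12 female Fischer rats, 4 to 6 weeks old, for 3 weeks after 9L gliosarcoma cells were injected 2 mm deep into the cortex. The control group, 9L.EV, received cells carrying the empty expression vector, and the other group, 9L.EGFRvIII, received cells carrying EGFRvIII, a truncated form of the epidermal growth factor receptor that signals without ligand. Each group had 6 tumours, 1 rat and 1 array per tumour. The labels name 1 line per group, made by transfection and, for EGFRvIII, zeocin selection, and the hosts were syngeneic and received no treatment. The labels do not say whether a line was a pool or a clone, and a difference between the 2 lines that is unrelated to EGFRvIII cannot be told apart from its effect, since the rats repeat the growth of the tumour and not the making of the line.

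The 9 genes have little in common by function. Prepl encodes a serine hydrolase related to prolyl endopeptidase, and Slc3a1 encodes rBAT, the heavy subunit of a transporter for cystine and dibasic amino acids; in humans, deletions that remove both cause hypotonia-cystinuria syndrome, and larger ones also take PPM1B and CAMKMT. Camkmt methylates a lysine of calmodulin, Ppm1b is a metal-dependent serine/threonine phosphatase, and Lrpprc binds mitochondrial messenger RNAs and keeps them stable. Dync2li1 is a light intermediate chain of dynein-2, the motor that carries cargo back from the tip of cilia, and Plekhh2 is a pleckstrin and FERM domain protein described in podocytes. Thada is a large protein whose human gene is broken in some thyroid adenomas, and Zfp36l2 is a zinc finger protein that binds AU-rich elements and promotes decay of messenger RNA.

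In the RefSeq annotation of the GRCr8 assembly the run spans 1295 kb of chromosome 6, from the start of Camkmt at 14951838 to the end of Zfp36l2 at 16246662. The symbols, not probe positions, place the genes. Camkmt (14951838 to 15332966, minus strand) and Prepl (15333107 to 15362825, plus strand) stand head to head with 140 bases between them. Slc3a1 (15361037 to 15396695, minus strand) overlaps the tail of Prepl by 1789 bases. Ppm1b (15399559 to 15460301, minus strand) is followed by Lrpprc (15612638 to 15695113, plus strand) and Dync2li1 (15745350 to 15778166, minus strand). Plekhh2 (15783179 to 15893479) comes next, and Thada (15936593 to 16240523, plus strand) ends 2098 bases before Zfp36l2 (16242622 to 16246662, plus strand).

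Promoter windows of 8 of the 9 genes were in the RefSeq table for GRCr8, each reaching from 250 bases before the table's transcription start to 50 bases after it; Plekhh2 had no entry. The windows below belong to the head-to-head pair, whose members had the smallest and the largest change of the run, to Lrpprc, which had the second largest change, and to Zfp36l2 at the end of the run. Capitals mark TGACG (the core of a cAMP response element) and the GC box GGGCGG, each read on both strands, so that CGTCA and CCGCCC are capitalised too. The windows are Camkmt at chr6:15332917-15333216 on the minus strand, Prepl at chr6:15333145-15333444 on the plus strand, Lrpprc at chr6:15612388-15612687 on the plus strand and Zfp36l2 at chr6:16242372-16242671 on the plus strand.
Camkmt: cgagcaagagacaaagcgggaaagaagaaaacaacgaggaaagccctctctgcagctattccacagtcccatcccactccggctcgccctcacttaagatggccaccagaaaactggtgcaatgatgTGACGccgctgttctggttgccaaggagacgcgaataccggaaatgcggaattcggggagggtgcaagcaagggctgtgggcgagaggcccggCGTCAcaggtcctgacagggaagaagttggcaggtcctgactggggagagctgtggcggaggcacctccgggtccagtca
Prepl: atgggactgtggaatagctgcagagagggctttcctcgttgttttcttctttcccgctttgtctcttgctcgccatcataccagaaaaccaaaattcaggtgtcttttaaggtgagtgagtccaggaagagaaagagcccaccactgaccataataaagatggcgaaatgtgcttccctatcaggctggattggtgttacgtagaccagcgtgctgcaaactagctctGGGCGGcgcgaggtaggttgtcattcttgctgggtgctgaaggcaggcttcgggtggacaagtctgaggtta
Lrpprc: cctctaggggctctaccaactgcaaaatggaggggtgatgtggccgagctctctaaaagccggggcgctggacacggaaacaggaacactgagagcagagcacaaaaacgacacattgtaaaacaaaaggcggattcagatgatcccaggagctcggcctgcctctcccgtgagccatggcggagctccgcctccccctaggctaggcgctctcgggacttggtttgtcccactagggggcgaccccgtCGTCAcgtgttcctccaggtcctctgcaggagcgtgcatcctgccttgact
Zfp36l2: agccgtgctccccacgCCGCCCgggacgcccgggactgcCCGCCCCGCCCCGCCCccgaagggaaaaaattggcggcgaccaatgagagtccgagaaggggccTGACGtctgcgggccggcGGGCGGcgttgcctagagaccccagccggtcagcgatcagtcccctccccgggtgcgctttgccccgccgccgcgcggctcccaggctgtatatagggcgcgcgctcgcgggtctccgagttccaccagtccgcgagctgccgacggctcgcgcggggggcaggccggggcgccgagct

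The Camkmt and Prepl windows share 72 bases, read from opposite strands. Base composition differed among the 8 windows: G and C made up 75.3% of the Zfp36l2 window, 63.0% of that of Ppm1b and 47.7% of that of Thada, against a median of 51.7% over 33469 windows of the same length. The Zfp36l2 window held 44 CpG dinucleotides, that of Ppm1b held 21 and those of Camkmt and Lrpprc 17 each. Those of Slc3a1 and Thada held 3 each, below the median of 7 over all windows. These 2 windows (15394700 to 15394999 and 15938401 to 15938700) lie inside the annotated genes, whose 5′ ends are at 15396695 and 15936593. The Ppm1b window (15459411 to 15459710) also lies inside its gene, whose 5′ end is at 15460301. So does the Prepl window (15333145 to 15333444), whose gene has its 5′ end at 15333107. The composition and motifs of the windows inside genes may therefore not be those of the sequence at the annotated 5′ end. TGACG was present in 5 of the 8 windows (Camkmt, Ppm1b, Lrpprc, Dync2li1 and Zfp36l2) and in 21.2% of all windows, the GC box in 3 of 8 (Prepl, Ppm1b and Zfp36l2) and in 33.1% of all, and the AP-1 site TGANTCA in 1 of 8 (Slc3a1) and in 7.33% of all. None of the 3 motifs was in the Thada window, and no motif was in all 8. The motifs were picked after the windows had been seen, so the shares describe these windows only.

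EGFRvIII arrays were dimmer before normalization, with a 75th percentile of the signal of 98.7 to 121 against 129 to 155 on EV arrays, and 11182 to 12719 probes were detected per array. The arrays of EV rats 2 and 3 stood apart, with median correlations to their own group of 0.943 and 0.947, against 0.973 to 0.984 for the other EV arrays and 0.963 to 0.979 for EGFRvIII arrays. Summed levels (normalized intensity) of 4 of 5 neuron markers measured ran from 111 to 7408 in EV tumours, highest in rat 2, and from 99.6 to 1882 in EGFRvIII tumours, highest in rat 1. Astrocyte markers (5 of 5 measured) summed to 9464 to 17018 in EV and 5492 to 8655 in EGFRvIII tumours, and endothelial markers (2 of 4 measured) to 1308 to 3220 and 492 to 1261. Macrophage and microglia markers (4 of 6 measured) summed to 864 to 6204, lowest in EV rat 3, and 3603 to 6950, and oligodendrocyte markers (3 of 5 measured) to 132 to 1997 and 92.2 to 774. By limma 0 neuron, 0 oligodendrocyte, 1 astrocyte and 2 endothelial markers were lower in EGFRvIII tumours and 1 macrophage marker was higher. The part of these cells in the results below was not tested, and in bulk tumour RNA fewer cells of a type and less RNA per cell cannot be told apart. Rat Egfr had 1 probe, read as background on all 12 arrays, so it does not check the labels.

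All 9 genes were higher in EGFRvIII tumours, by 0.52 (Camkmt) to 2.44 (Prepl) on the log2 scale, where 51.6% of all genes had a change above 0. The median change was 1.41, against 0.01 over all genes tested. Of the 9 genes, 9 passed the limma threshold (adjusted p under 0.05) upward, and the percentage of all genes that did so was 11.1%; nothing is read from this, since the contrast chose the genes. For 7 of 9 genes every EGFRvIII tumour lay above every EV tumour, which held for 5.63% of all genes, and 5 of the 9 changed by at least 1 on the log2 scale, as did 2.81% of all genes.

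**Figure D1:**
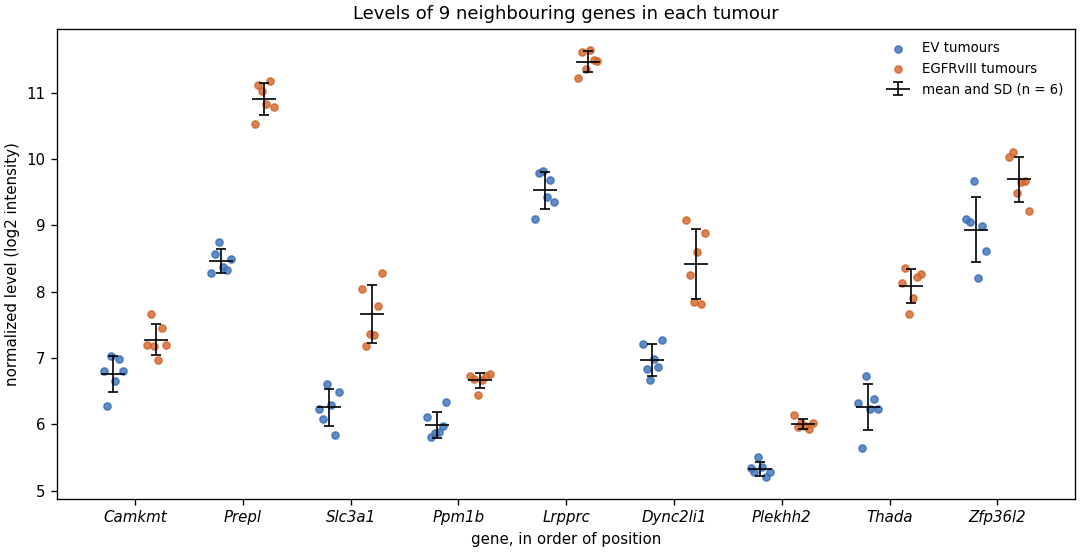
Normalized log2 intensity (vertical axis) of the 9 genes in order of position (horizontal axis), with 1 point per tumour (EV blue, EGFRvIII orange) and bars for the mean and SD of 6 tumours. The groups lie apart for 7 genes and overlap for Camkmt and Zfp36l2.

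Prepl, the serine hydrolase, had the largest change. Its normalized log2 level was 8.28 at the lowest, 8.43 at the median and 8.76 at the highest in EV tumours, and 10.53, 10.92 and 11.18 in EGFRvIII tumours. The groups were separated by 1.77 between the highest EV and the lowest EGFRvIII tumour, the widest gap of the 9 genes. The means were 8.46 ± 0.18 and 10.91 ± 0.24 (SD, n = 6 each), a change of 2.44 ± 0.12 (SE) or 5.44-fold, which ranked 26 among the rises of 11695 genes. Before normalization the probe's signal rose from 344 to 432 on EV arrays to 1205 to 2298 on EGFRvIII arrays, although the latter arrays were dimmer.

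Camkmt, which shares its 5′ end region with Prepl, had the smallest change. Its level ran from 6.28 through a median of 6.80 to 7.03 in EV tumours and from 6.98 through 7.20 to 7.66 in EGFRvIII tumours. The groups overlapped by 0.05, and 5 of 6 EGFRvIII tumours lay above all EV tumours. The change was 0.52 ± 0.15 (1.43-fold, rank 1141). In signal before normalization the groups overlapped widely, at 80.0 to 131 against 102 to 168. Within the same arrays, Prepl changed by 1.92 ± 0.16 (SE) more than Camkmt, so the head-to-head pair moved by unequal amounts.

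Slc3a1, the transporter subunit on the other side of Prepl, had levels of 5.84, 6.26 and 6.61 (lowest, median, highest) in EV tumours and 7.19, 7.58 and 8.28 in EGFRvIII tumours. All EGFRvIII tumours lay above all EV tumours, with rats 6 and 1 the highest. The change was 1.41 ± 0.20 (2.66-fold). Ppm1b, the phosphatase, is next to it with 2.86 kb between the annotated genes. Its levels were 5.80, 5.93 and 6.33 in EV and 6.45, 6.70 and 6.76 in EGFRvIII tumours. The groups did not overlap but came within 0.11 of each other, and the signals before normalization did overlap (41.8 to 65.2 against 64.3 to 81.4). The change was 0.67 ± 0.12 (1.59-fold).

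Lrpprc, the mitochondrial RNA-binding protein, had the brightest probe of the run in EGFRvIII tumours; brightness differs between probes for reasons other than the amount of RNA, so it does not rank the genes. In EV tumours it read 9.10 at the lowest, 9.55 at the median and 9.82 at the highest, and in EGFRvIII tumours 11.21, 11.48 and 11.64. The groups lay 1.39 apart. The change was 1.93 ± 0.13 (3.82-fold, rank 57), and the signal before normalization went from 620 to 903 on EV arrays to 2048 to 3430 on EGFRvIII arrays.

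Between Lrpprc and Dync2li1 lie Abcg8 and Abcg5, whose products form a sterol exporter of liver and intestine. Both probes were detected on 0 of 12 arrays, so neither gene was tested. The signal of Abcg8 lay between -6.5 and -2.8 in EV and between -5.5 and -1.1 in EGFRvIII tumours, and that of Abcg5 between -1.3 and 7.2 and between -1.9 and 3.3. These are background readings in both groups. One further protein-coding gene inside the run, LOC134479312, had no annotated probe.

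Dync2li1, the dynein-2 chain, varied most among EGFRvIII tumours. Its levels were 6.66, 6.92 and 7.27 in EV tumours (lowest, median, highest) and 7.82, 8.43 and 9.08 in EGFRvIII tumours, with rats 1 and 6 the highest and rats 3 and 5 the lowest. The SD was 0.23 in EV and 0.53 in EGFRvIII tumours, and the groups lay 0.54 apart. The change was 1.44 ± 0.22 (2.72-fold). Plekhh2, the neighbour of Dync2li1, had the dimmest probe of the run, with levels of 5.20, 5.31 and 5.51 in EV and 5.93, 6.00 and 6.15 in EGFRvIII tumours. Its spread was also the smallest (SD 0.10 and 0.08), and the groups did not overlap. The change was 0.68 ± 0.09 (1.60-fold).

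Thada had levels of 5.65, 6.28 and 6.73 in EV tumours and of 7.67, 8.18 and 8.35 in EGFRvIII tumours (lowest, median, highest). The groups lay 0.94 apart, with EV rat 2 the lowest of its group and EV rat 3 the highest. The change was 1.83 ± 0.18 (3.55-fold, rank 67). Zfp36l2, which starts 2098 bases beyond Thada, overlapped between the groups: 8.21, 9.02 and 9.66 in EV against 9.21, 9.66 and 10.11 in EGFRvIII tumours. Only EGFRvIII rats 1 and 2 lay above the highest EV tumour, rat 3. The change was 0.76 ± 0.22 (1.69-fold), which was 1.07 ± 0.25 (SE) less than that of Thada on the same arrays.

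The genes at both ends of the run lay nearest the threshold. Camkmt stayed past it in 16 of 22 alternative settings and Zfp36l2 in 18 of 22, and each of the other 7 in 22 of 22. With 1 tumour left out, the change of Camkmt lay between 0.42 (without EV rat 2) and 0.58 (without EGFRvIII rat 4). That of Zfp36l2 lay between 0.61 (without EV rat 4) and 0.90 (without EV rat 3). Camkmt no longer passed without EV rat 4 (change 0.50), EGFRvIII rat 2 (0.44) or EGFRvIII rat 5 (0.48). Zfp36l2 no longer passed without EV rat 6 (0.69), EGFRvIII rat 1 (0.69) or EGFRvIII rat 2 (0.67). Without EV rats 2 and 3 together, the arrays that stood apart, all 9 passed and the median change was 1.33.

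**Figure D2:**
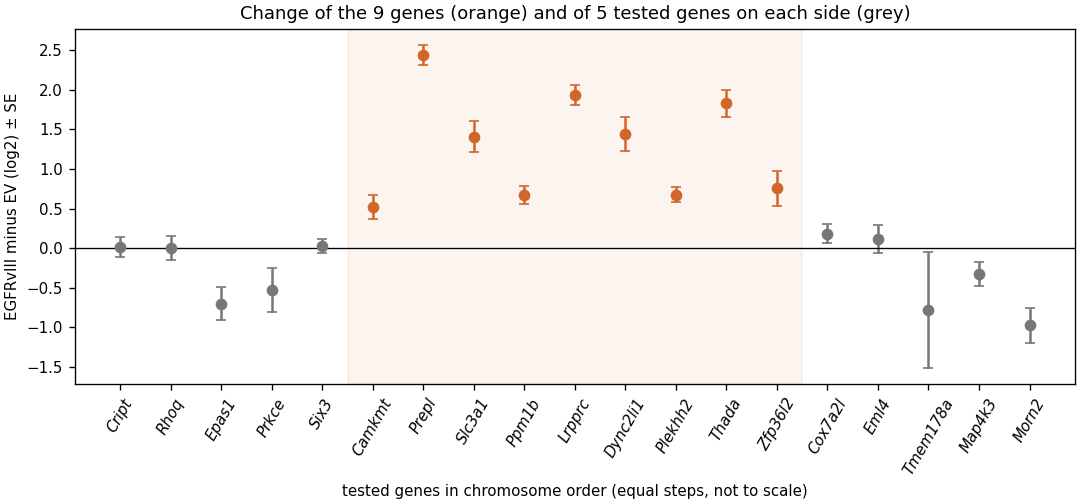
Change from EV to EGFRvIII tumours on the log2 scale with its SE (vertical axis) for the 9 genes (orange) and for the 5 nearest tested genes on each side (grey), in chromosome order with equal steps. The 9 genes lie between 0.52 and 2.44, and the nearest genes on either side at 0.02 and 0.18.

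Just outside the run the change was near 0. The run was chosen with this contrast in view, so its ends may have been placed where the rise stops. The flanking values are therefore a description, and nothing is read from the edge. Six3, a homeobox gene 155 kb before Camkmt, read 4.83 ± 0.09 in EV and 4.85 ± 0.16 in EGFRvIII tumours, a change of 0.02 ± 0.09, but it lay close to background with detection in all 6 EV tumours but in 4 EGFRvIII tumours. Cox7a2l, a respiratory chain assembly factor 690 kb beyond Zfp36l2, was bright at 11.05 ± 0.24 and 11.24 ± 0.19, with a change of 0.18 ± 0.12 (0.43 after median scaling without the quantile step), and Eml4, a microtubule-binding protein next to it, changed by 0.12 ± 0.18. At the ends of the run stood Camkmt at 0.52 and Zfp36l2 at 0.76. With that median scaling Cox7a2l passed the threshold (limma adjusted p = 0.0463), while Camkmt, at 0.48, did not (0.118). The annotated genes Haao and Kcng3 between Zfp36l2 and Cox7a2l were detected on 0 of 12 arrays, and Mta3 and LOC102548459 had no annotated probe, so the 690 kb after Zfp36l2 held no tested gene.

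Farther out, the tested genes had changes of 0.01 or less. Before Six3 came Prkce, a protein kinase C, at -0.53 ± 0.28 and Epas1, a hypoxia-inducible factor subunit, at -0.70 ± 0.21, and then Rhoq and Cript, both at 0.01 (SE 0.15 and 0.13). After Eml4 came Tmem178a at -0.78 ± 0.73, Map4k3, a kinase, at -0.33 ± 0.15 and Morn2 at -0.98 ± 0.22, all of them 3510 kb or more beyond the run. Tmem178a depended on single arrays, at -0.18 without EV rat 2, -1.24 without EGFRvIII rat 1 and -0.08 without EV rats 2 and 3, and Prkce was at -0.31 without EV rat 2. Epas1 was at -1.55 in the authors' values. Of these 10 flanking genes none had a change as high as that of Camkmt, and the way the run was chosen bears on this.

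**Figure D3:**
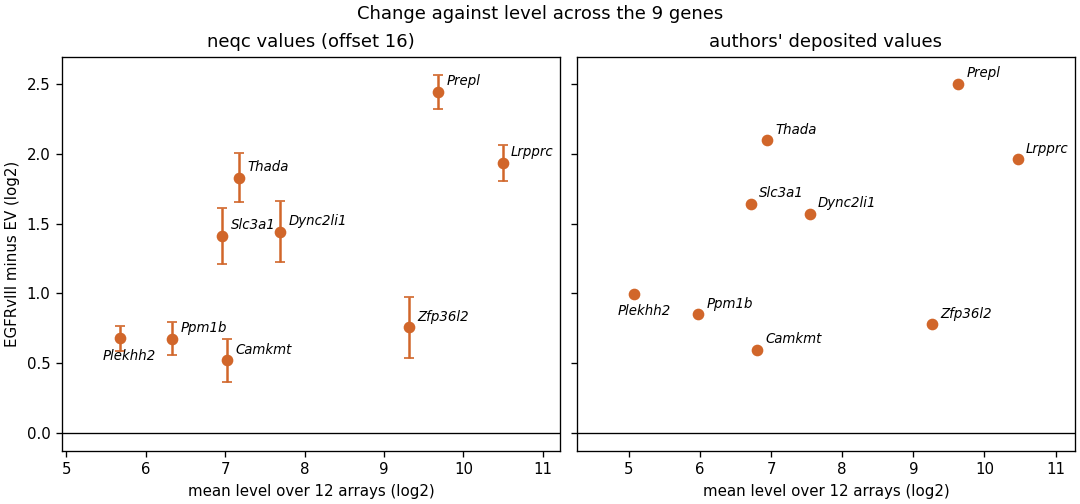
Change from EV to EGFRvIII tumours (vertical axis, log2) against the mean level over 12 arrays (horizontal axis, log2) for the 9 genes, with normalized values from the intensities on the left (bars are the SE) and the authors' deposited log2 values on the right. The 2 brightest strong changers are Prepl and Lrpprc, and Zfp36l2 is bright with a small change.

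Whether size of change followed the signal level of the probe depended on the measure of level. Across the 9 genes the Spearman correlation of change with mean level was 0.73 (Pearson 0.61), and it lay between 0.64 and 0.79 when any 1 gene was left out. The mean level contains the change itself; against the EV level alone the Spearman correlation was 0.55 (Pearson 0.45), and with the EV level in the authors' deposited values it was 0.20 (Pearson 0.32). These 9 points share the same arrays and are no replicates. Over all 11695 genes the Spearman correlation of the signed change with mean level was 0.00. Rises and falls can cancel in that value, so it does not say whether size followed level. Over the 1299 genes called higher the correlation was -0.05. Zfp36l2 combined a bright probe with a small change, with a mean level of 9.31 and a change of 0.76, and Thada a dimmer probe with a large one, with 7.18 and 1.83.

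An offset of 16 was added before logs, which shrinks changes of dim probes. In the authors' deposited log2 values the correlation with level was 0.43 (Spearman) and the dim genes changed more: Plekhh2 by 1.00 in place of 0.68, Ppm1b by 0.85 in place of 0.67, Slc3a1 by 1.64 in place of 1.41 and Thada by 2.10 in place of 1.83. The bright genes hardly moved, with Prepl at 2.50 and Lrpprc at 1.96. When the offset was taken off the normalized values the changes of the 9 genes were close to those in the authors' table, with a median of 1.57 in both. In both sets of values Camkmt had the smallest change and Prepl the largest.

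Gene position did not order the changes. From Camkmt to Zfp36l2 they read 0.52, 2.44, 1.41, 0.67, 1.93, 1.44, 0.68, 1.83 and 0.76. Large and small changes were mixed along the run, with the small ones at both ends and at Ppm1b and Plekhh2 within. Prepl with Slc3a1, and Lrpprc with Dync2li1, were neighbours with larger changes. The Spearman correlation of change with gene order was 0.10 and lay between -0.29 and 0.38 when any 1 gene was left out, and with the number of steps from the nearer end it was 0.25. With the length of the gene it was -0.35. Neighbours differed from each other by 0.49 (Dync2li1 below Lrpprc) to 1.92 (Prepl above Camkmt) (SE 0.32 and 0.16).

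**Figure D4:**
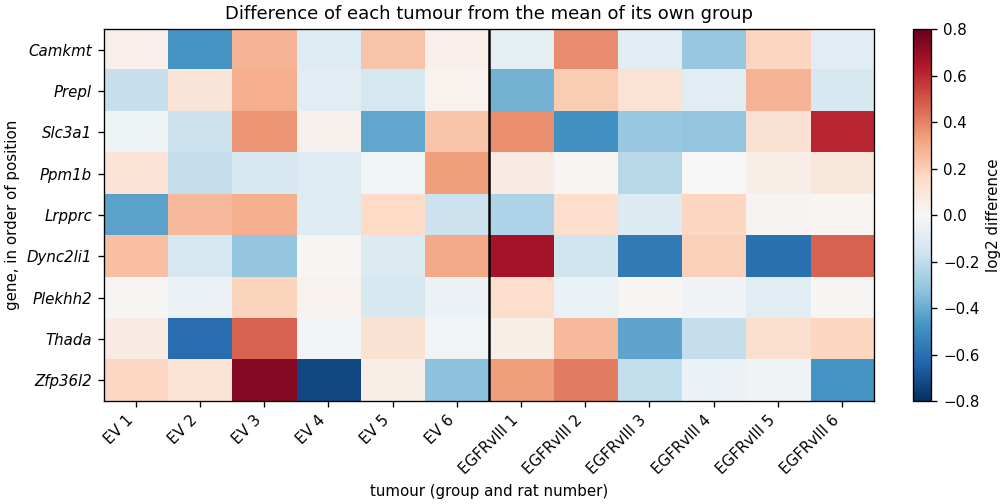
Difference of each tumour from the mean of its own group (colour, log2) for the 9 genes (rows, in order of position) and 12 tumours (columns). No tumour is high or low in all 9 genes.

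Within a group, no correlation between neighbours passed after adjustment. With 6 tumours even r = -0.90 did not pass, so this does not show that neighbours varied independently. The 8 pairs of adjacent genes were correlated over the 6 tumours of each group, which does not use the difference between the groups. Pearson correlations ran from -0.90 to 0.63 in EV tumours (median 0.13) and from -0.55 to 0.71 in EGFRvIII tumours (median 0.22). The strongest, between Lrpprc and Dync2li1 in EV tumours (r = -0.90, rho = -0.94), had exact permutation p-values of 0.0139 and 0.0167, and 0.222 and 0.267 after Benjamini-Hochberg adjustment over the 16 relations; without EV rats 1 and 3, the 2 farthest from the median, r was -0.87. The same pair had r = -0.24 in EGFRvIII tumours (exact permutation p = 0.635). In EGFRvIII tumours the highest r was that of Dync2li1 with Plekhh2 (0.71, exact permutation p = 0.0944, adjusted 0.544; rho = 0.83, exact permutation p = 0.0583, adjusted 0.311), and it was 0.05 without rats 1 and 5. Of the 16 correlations, 4 changed sign without the 2 farthest tumours.

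The mean deviation of the 9 genes from their group means was used to find the genes most like that mean over the 12 arrays. The 9 genes themselves correlated with it unevenly, from 0.10 (Prepl) and 0.12 (Lrpprc) to 0.84 (Thada). The mean therefore does not stand for every member. The search took the 8383 tested genes with a symbol, members left out. The 5 highest Pearson correlations with the mean were those of Rffl (0.94), Rabl2 (0.91), Stat5a (0.89), Sox6 (0.89) and Tmem250 (0.89). They are the largest of many correlations over 12 arrays, so high values can come from the search alone. Whether they exceed what such a search yields was not tested. These genes are on chromosomes 10, 7, 10, 1 and 3, so none of them lies on chromosome 6. Their changes between the groups were -0.58 ± 0.14, -0.58 ± 0.16, -0.05 ± 0.18, 0.05 ± 0.12 and -0.33 ± 0.13.

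Relatives and partners of the 9 genes elsewhere in the genome changed in both directions. Of 45 genes listed by family or complex, 27 were tested, and 9 of these (33.3%) passed the threshold, 3 higher and 6 lower, where 21.5% of all genes did (11.1% higher and 10.4% lower). The median change was -0.04. With the offset added before median scaling, a setting that moved the median of all genes to -0.08, 0 were higher and 8 lower, and all 3 upward calls named next were lost. Among the amino acid transporters, 2 of 5 were higher and 0 lower: Slc3a2, the heavy subunit 4F2hc and closest relative of Slc3a1, went from 10.52 ± 0.15 to 10.86 ± 0.11 (change 0.34 ± 0.09, limma adjusted p = 0.0132), and Slc7a6 rose by 0.48 ± 0.13 (limma adjusted p = 0.0188). The call of Slc7a6 was also lost with median scaling (adjusted p = 0.0701) and without EV rats 2 and 3, the arrays that stood apart (0.0579). Slc7a9, the light subunit that pairs with Slc3a1, was near background at 4.76 ± 0.11 and 4.95 ± 0.12 and did not pass (limma adjusted p = 0.134).

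**Figure D5:**
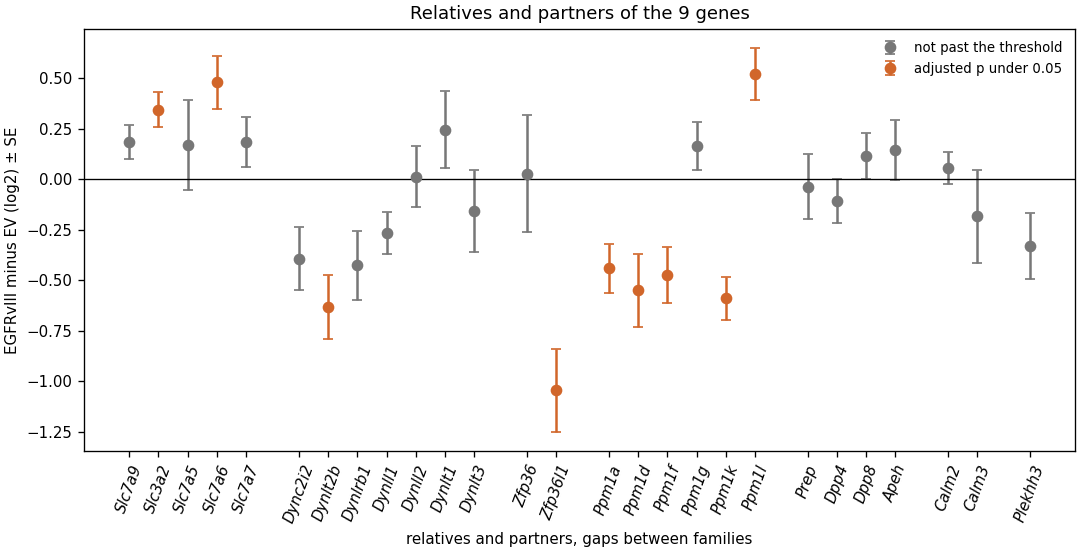
Change from EV to EGFRvIII tumours on the log2 scale with its SE (vertical axis) for the 27 tested relatives and partners, grouped by family (horizontal axis), with those past the threshold in orange. Of these, 3 are higher and 6 lower, the lowest being Zfp36l1.

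Among the PPM phosphatases, relatives of Ppm1b, 1 of 6 was higher and 4 were lower. Ppm1l rose by 0.52 ± 0.13 (limma adjusted p = 0.0106), whereas Ppm1k, a mitochondrial phosphatase of branched-chain amino acid breakdown, fell from 5.60 ± 0.22 to 5.01 ± 0.08 (change -0.59 ± 0.11, limma adjusted p = 0.00186). The Ppm1k probe was dim, and the size of its change depended on the offset: -0.32 with an offset of 50 and -0.99 in the authors' values. Ppm1d, a phosphatase of the p53 pathway, was lower by 0.55 and Ppm1f by 0.47, with limma adjusted p-values of 0.0448 and 0.0278. Ppm1a (-0.44 ± 0.12), named after its value had been seen, was the fourth. The call of Ppm1a was lost with median scaling (adjusted p = 0.218), with the replicate block (0.0581) and without EV rats 2 and 3 (0.0553), and that of Ppm1l with median scaling (0.0545), with the offset added first (0.0838) and with the block (0.0523). Ppm1d and Ppm1f lay near the threshold. Across the alternatives the change of Ppm1d lay between -0.75 and -0.42 and that of Ppm1f between -0.66 and -0.32. Both calls were lost with no filter on dim probes (limma adjusted p = 0.0759 and 0.0690) and with the block (0.0656 and 0.0657). That of Ppm1d was also lost with median scaling (0.0777) and without EV rats 2 and 3 (0.0722). The call of Ppm1d was lost when any tumour but EV rat 2 and EGFRvIII rat 6 was left out (change -0.59 to -0.44). That of Ppm1f was lost when EV rat 3, EV rat 5, EGFRvIII rat 4 or EGFRvIII rat 6 was left out (-0.47 to -0.40).

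In the family of Zfp36l2, 1 of 2 tested genes was lower. Zfp36l1 fell from 9.84 ± 0.25 to 8.79 ± 0.49 (change -1.05 ± 0.20, 2.06-fold, limma adjusted p = 0.00293), while Zfp36 changed by 0.03 ± 0.29. Of 7 dynein-2 subunits and light chains 1 was lower, Dynlt2b (-0.63 ± 0.16, limma adjusted p = 0.0119). Of 4 prolyl oligopeptidase family genes, 2 calmodulin genes and Plekhh3, none passed by limma; Prep, the closest relative of Prepl, changed by -0.04 ± 0.16, and Calm2, which encodes the substrate of Camkmt, by 0.05 ± 0.08. Slirp, the partner of Lrpprc, and Ftsj1, a partner of Thada, had no probe under these symbols.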

How the data were processed

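RNA of each tumour (about 100 ng) was amplified to biotinylated cRNA and read on 1 array, per the labels' protocols. The deposited table gives the average signal intensity per probe, per the file headers; some are negative, as after subtraction of a background. The deposited detection score, a fraction from 0 to 1 that is high for bright probes, was taken to be 1 minus the detection p. The authors also deposited log2 values with near-identical quantiles on all arrays; how they were made is not stated beyond the name Partek, per the submitters' processing notes. Depth does not apply to arrays; their number limits the precision.

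The deposited intensities went through neqc of limma 3.58.1 (R 4.3.3; offset 16, quantile step, log2). The filter asked for detection (p under 0.05) on 6 or more arrays and kept 11862 of 22523 probes, with the brightest probe per gene, leaving 11695 genes. lmFit and eBayes with a trend tested EGFRvIII minus EV, two-sided, Benjamini-Hochberg over all genes. Within-group correlations used exact two-sided permutation over 6 tumours. Gene order and promoters came from RefSeq tables for GRCr8. The fit was tested on simulated data. Python 3.11.15, scipy 1.17.1, numpy 2.4.6, pandas 2.3.3 and matplotlib 3.10.9 were used.

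Named are the 9 genes, 5 tested genes on each side, up to 4 called relatives per family by size of change, and the 5 most alike genes. Outside this rule, Ppm1a and the uncalled relatives in the text were named after their values had been seen. The members and lists were chosen with earlier results of these data known. Same-numbered rats were not positively correlated, at -0.34 to -0.06 after the group means were removed, and 0 of 6 numbers gave the best match. This does not exclude a pairing of another kind. Alternatives were other normalizations, filters and probe rules, the authors' values, the rat number as a block, array weights and tumours left out.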

Additional observations from a re-analysis of the deposited data

Results flagged for a closer look

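In groups of 6 tumours, 4 single readings lay far from the other 5 among 66 groups examined (33 genes in each tumour group), where chance gives about 1 in 20. Ppm1b, a member of the run, read 6.45 in EGFRvIII rat 3, below the other 5 at 6.67 to 6.76; it was still above all EV tumours. Tmem178a, on the far flank, read 7.95 in EGFRvIII rat 1, above the others at 4.68 to 5.63; that tumour was the highest of its group in neuron markers. Among the phosphatases, Ppm1a read 9.63 in EV rat 3 (others 8.98 to 9.20) and Ppm1f read 5.51 in EGFRvIII rat 6 (others 5.84 to 6.03).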

How the results depend on the processing

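Across 22 alternatives the number of genes past the threshold lay between 1791 and 3048 (main value 2519), and 51.6% of them were higher; this share was 60.4% after median scaling and 29.9% with the offset added before median scaling, an alternative chosen after seeing the data. No sign of any of the 9 changes turned in these alternatives. Their median lay between 1.11 (offset of 50) and 1.57 (authors' values, and no offset), and 7 to 9 members passed, 7 with the offset added before scaling and without EGFRvIII rat 2. With any 1 array left out the median was 1.29 to 1.47, all genes called were 1959 to 2504, and the relatives called were 7 to 11. The rat number was also tried as a replicate block, although same-numbered tumours were not positively correlated. With it, 8 members passed, all genes called were 1817 and 5 relatives passed, 2 higher and 3 lower. The Spearman correlation of change with level moved from 0.73 to 0.55 with EV levels and to 0.43 with the authors' values. The median of the 16 within-group correlations was 0.19, and -0.08 without the 2 farthest tumours. The offset shrinks differences of dim probes, among them Plekhh2, whose change lay between 0.41 (offset of 50) and 1.00 (authors' values).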
